A study of Mus musculus with 8 samples.

Results

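This report follows 10 mouse genes of DNA methylation, of a Polycomb complex that marks histone H3, and of the high mobility group (HMG) families of chromatin proteins: Ezh2, Eed, Suz12, Dnmt1, Dnmt3a, Dnmt3b, Hells, Hmga1, Hmga2 and Hmgb2. All probe sets of the array that are annotated to one of these symbols alone were taken, which gave 29 of the 45101 probe sets and 9 of the 10 genes. No probe set used here is annotated to Hmga1 alone. A probe set was tested when its signal reached 50 on at least 2 of the 8 arrays (the average of an array being 100), and 16 of the 29 did, covering 8 genes. Hmga2 stayed under this limit at all 4 of its probe sets and is given from a fit over all probe sets.

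The arrays measured RNA of neural stem cells (NSCs) grown as secondary neurospheres, floating clusters of cells formed after a passage, for 3 or 7 days. The control medium, MHM + GF, is a serum-free neurosphere medium with the growth factors EGF and FGF-2. The other medium, rcCHIL3, is MHM conditioned by HEK293T cells, a human embryonic kidney line, that had been transfected with Chil3, so it holds whatever else these cells release besides the protein CHIL3. The sources used here do not say whether growth factors were added to it for the arrays, and medium conditioned by cells without Chil3 was not analysed here. Each of the 4 groups had 2 arrays from independent experiments, named array 1 and array 2 in the order of their labels. The series text speaks of adult mouse brain, whereas the methods describe neurospheres from the striatum of embryonic or adult mice.

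EZH2, EED and SUZ12 are the core of Polycomb repressive complex 2 (PRC2), in which EZH2 is the methyltransferase, EED reads the mark that the complex makes, and SUZ12 holds the complex together. DNMT1 copies DNA methylation onto new strands after replication with the help of UHRF1, DNMT3A and DNMT3B set it at new sites, and HELLS (also called LSH) is an SNF2-family remodeler needed for normal methylation of repeats. HMGA1 and HMGA2 bind AT-rich DNA, and HMGA2 is known for promoting self-renewal of young neural stem cells and for being repressed by the let-7 microRNA, while HMGB2 bends DNA and is abundant in cycling progenitors. Several of these genes are known targets of E2F factors, which switch on genes for S phase.

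Because of that link, the promoters were searched for E2F site forms. Of the 10 genes, 4 held TTTCCCGC, TTTGGCGC, TTTCGCGC or TTTGCCGC on either strand between 250 bases before and 50 bases after a start in RefSeq (GRCm38.p6), against 2.6% of 27025 genes. The promoters of these 4 genes are shown, to set beside their values below. Each sequence runs 5′ to 3′ on the strand of its gene, with the matching form in capitals. For Dnmt1 only 30 bases are given, since that start lies inside another listed transcript, and the capitals are the form TTTCGCGC read on the other strand.
Ezh2, chr6:47595020-47595280, minus strand, up to 11 bases after the start: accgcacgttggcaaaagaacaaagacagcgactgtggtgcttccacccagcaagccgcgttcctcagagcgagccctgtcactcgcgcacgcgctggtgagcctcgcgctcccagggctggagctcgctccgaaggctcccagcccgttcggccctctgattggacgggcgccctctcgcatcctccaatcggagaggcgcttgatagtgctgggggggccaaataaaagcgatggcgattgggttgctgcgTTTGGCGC
Suz12, chr11:79992856-79993105, plus strand, the 250 bases before the start: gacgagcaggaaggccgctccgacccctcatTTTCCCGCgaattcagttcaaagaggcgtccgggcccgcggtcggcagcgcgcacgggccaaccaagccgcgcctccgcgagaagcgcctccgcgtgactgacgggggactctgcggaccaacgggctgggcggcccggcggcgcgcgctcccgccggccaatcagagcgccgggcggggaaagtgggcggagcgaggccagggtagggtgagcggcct
Dnmt1, chr9:20952824-20952853, minus strand: ggtttccgcgcGCGCGAAAaagccggggtc
Hells, chr19:38930740-38930989, plus strand, the 250 bases before the start: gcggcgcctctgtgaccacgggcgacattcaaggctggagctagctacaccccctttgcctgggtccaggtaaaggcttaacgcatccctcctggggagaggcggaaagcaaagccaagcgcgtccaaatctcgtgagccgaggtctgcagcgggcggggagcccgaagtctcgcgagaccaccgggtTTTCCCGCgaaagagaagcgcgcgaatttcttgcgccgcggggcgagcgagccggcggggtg
In Hells the form begins 62 bases before the start, in Suz12 219 bases before it, and in Ezh2 at base 4 of the transcript. The same Dnmt1 start also has TTTGGCGC, not printed, beginning 34 bases into the transcript. The short sequence TTTGAA, which is the core of a cell cycle element called CHR and is common by chance, was found in 5 of the 10 genes against 20.2% of all genes, and in Hmgb2 it begins 30 bases before the start. These are matches of letters, and the arrays do not measure binding.

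Over the tested probe sets, r between the 2 arrays of each group was 0.992 to 0.994. Of the neural stem and progenitor markers, 9 of 9 with a probe set of their own were over the limit, and Sox2 was bright in every group (means of 1728 to 2055), but the mean of Nes was 187 in MHM + GF at 3 days and 13.8 to 29.9 in the other groups. Nes passed the limit only through MHM + GF at 3 days, so the filter favoured this pattern. By the threshold given below, 5 of the 9 were lower with rcCHIL3 at 3 days (against 22.1% of all tested genes). At that day 3 were higher (against 30.3%), Sox9, Msi1 and Pax6 (log2 differences of 0.58, 0.48 and 0.24). At 7 days 4 were lower (against 22.6%) and in limma 0 higher (against 21.8%). No marker of microglia and macrophages (6 on the array, highest signal 40.6) or of endothelial cells (6, highest 30.9) was over the limit. In RNA of whole spheres, fewer cells of a type and less RNA per cell cannot be told apart.

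Most of the 8 tested genes were lower in rcCHIL3 than in MHM + GF at both days, with Hells, Hmgb2 and Ezh2 changing most. At 3 days Ezh2, Eed, Suz12, Dnmt1, Hells and Hmgb2 were lower (6 of 8, where 22.1% of 8975 tested genes were lower) and Dnmt3a was higher (1 of 8, against 30.3%). At 7 days Ezh2, Dnmt1, Dnmt3a, Dnmt3b, Hells and Hmgb2 were lower (6 of 8, against 22.6%) and Eed was higher (1 of 8, against 21.8%). The signal filter favoured the Dnmt3b call, since this gene reached 50 only in MHM + GF at 7 days. Leaving Dnmt3b out, a choice made after seeing the data, 5 of 7 were lower. Hells reached 50 only in MHM + GF, at both days, so the filter favoured its lower calls too, and it stays in these counts. The median log2 difference of the 8 genes was -0.54 at 3 days and -0.36 at 7 days (-0.64 and -0.26 without Dnmt3b), beside 0.04 and -0.01 over all tested genes. A gene is counted at its brightest tested probe set, and past the threshold means a Benjamini-Hochberg adjusted p under 0.05 in limma, over 15679 tested probe sets. All log2 differences are of log2(signal + 20), which understates the fold of dim probe sets.

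Over time in MHM + GF, 6 of the 8 fell from 3 to 7 days (against 24.2% of all genes) and Dnmt3a and Dnmt3b rose (2 of 8, against 34.0%), with a median of -0.44 beside 0.07 over all genes. The rise of Dnmt3b was favoured by the filter in the same way, and without it 1 of 7 rose and the median was -0.48. In rcCHIL3, Ezh2, Suz12, Dnmt3a, Hells and Hmgb2 fell (5 of 8, against 18.1%) and 0 of 8 rose (against 20.4%; in limma 0 also at an unadjusted p under 0.05, and 0 with the methods' t-test), with a median of -0.27 beside 0.01. The difference between the 7-day and the 3-day effect of rcCHIL3 passed the threshold upwards for 4 genes (against 19.2%) and downwards for 2 (against 24.1%), or 1 without Dnmt3b.

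**Figure D1:**
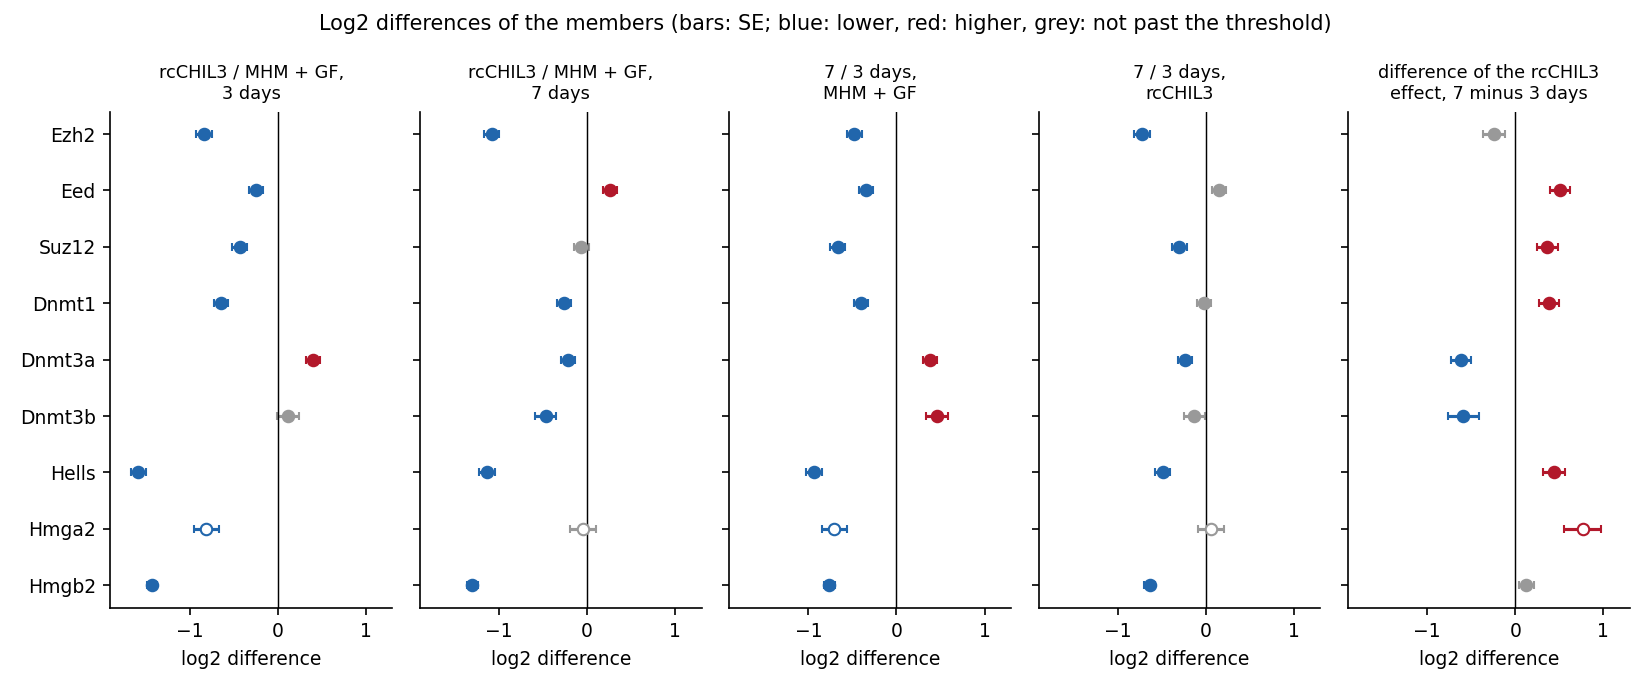
Log2 differences (x axis) of the 9 genes with a probe set, at the brightest one, in 5 comparisons (panels); points are fitted differences, bars their standard errors, blue and red mark calls past the threshold, and the open points of Hmga2 come from the fit over all probe sets. Hells, Hmgb2 and Ezh2 lie left of 0 in the first 4 panels, while Dnmt3a and Dnmt3b lie right of 0 at 3 days and left of it at 7 days.

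Ezh2, the PRC2 methyltransferase, was lower with rcCHIL3 at both days and fell over time in both media. Its single probe set, 1416544_at, gave signals of 611 and 518 in MHM + GF at 3 days and 325 and 287 in rcCHIL3, and at 7 days 408 and 389 against 175 and 179. The groups did not overlap in any of the 4 comparisons, and the order was MHM + GF at 3 days, MHM + GF at 7 days, rcCHIL3 at 3 days and rcCHIL3 at 7 days. The difference was -0.84 at 3 days (SE 0.09, adjusted p = 1.17e-05) and -1.09 at 7 days (SE 0.09, adjusted p = 3.19e-06). At 3 days 5.44% of all tested genes had a lower value than Ezh2 and at 7 days 1.27%. From 3 to 7 days it fell by 0.48 in MHM + GF (adjusted p = 0.000736) and by 0.72 in rcCHIL3 (adjusted p = 8.22e-05).

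Eed, the reader subunit, moved little and in opposite directions at the 2 days. At 1448653_at its signals were 272 and 265 in MHM + GF at 3 days against 231 and 215 in rcCHIL3, and 210 and 203 in MHM + GF at 7 days against 267 and 235 in rcCHIL3. At 3 days the rcCHIL3 arrays were the lower pair, at 7 days the higher pair, and the groups did not overlap at either day. The difference was -0.25 at 3 days (SE 0.08, adjusted p = 0.022) and 0.26 at 7 days (SE 0.08, adjusted p = 0.0216). These are small effects: the call at 3 days ended without MHM + GF array 1 (adjusted p = 0.0915) or array 2 (0.0556) and without rcCHIL3 array 2 (0.142), and on the deposited scale (0.0639). The call at 7 days ended without MHM + GF array 2 (0.087) or rcCHIL3 array 1 (0.17), and with the methods' t-test (unadjusted p = 0.0985). The other Eed probe set, 1453830_at, had signals of 0.269 to 5.95 and no call.

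Suz12, the scaffold, was highest in MHM + GF at 3 days. At 1420021_s_at the signals were 365 and 405 in that group, 270 and 290 in rcCHIL3 at 3 days, 248 and 222 in MHM + GF at 7 days and 232 and 215 in rcCHIL3 at 7 days. Only at 7 days did the arrays of the 2 media overlap. The difference was -0.43 at 3 days (SE 0.08, adjusted p = 0.00114) and -0.07 at 7 days (SE 0.08, adjusted p = 0.539). The other tested probe sets, 1427253_s_at and 1452364_at, gave -0.40 (adjusted p = 0.00826) and -0.49 (adjusted p = 0.0101) at 3 days, and 0.21 (adjusted p = 0.129) and -0.04 (adjusted p = 0.838) at 7 days. In MHM + GF it fell by 0.67 from 3 to 7 days (adjusted p = 3.99e-05). In rcCHIL3 it fell by 0.30 (adjusted p = 0.0152), a call that ended without rcCHIL3 3-day array 2 (0.113), without rcCHIL3 7-day array 2 (0.102), on the deposited scale (0.287) and at the second brightest probe set (0.382). Its remaining 3 probe sets were under the limit and had no call at either day.

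**Figure D2:**
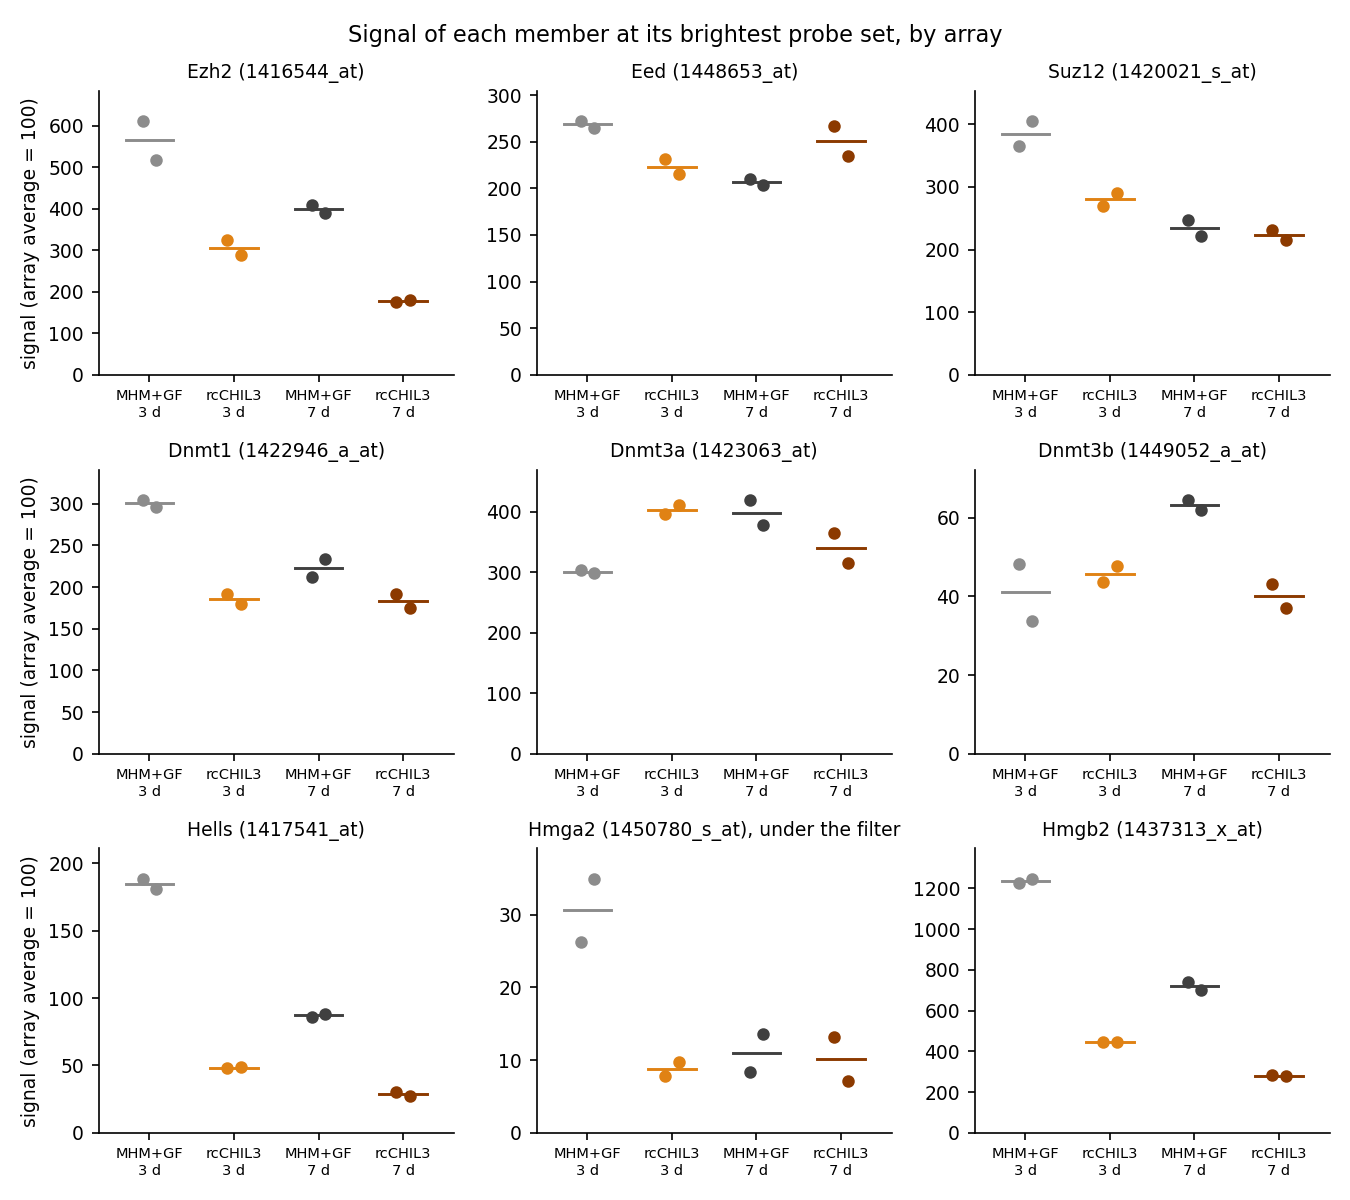
Signals (y axis, array average 100, starting at 0) of each gene at its brightest probe set in the 4 groups (x axis); points are arrays and lines the means of 2 arrays. Ezh2, Hells and Hmgb2 step down in the same order of groups without overlap, Suz12 and Hmga2 are highest in MHM + GF at 3 days, and Dnmt3a is lowest there.

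Of 7 tested PRC2 accessory subunits, a list that also holds Ezh1, 2 were lower at 3 days, Rbbp7 (-0.37, SE 0.06, adjusted p = 0.000469), a histone-binding subunit, and Mtf2 (-0.28, SE 0.08, adjusted p = 0.0151), which helps recruit the complex. Ezh1, the methyltransferase that can take the place of EZH2 and is typical of cells that divide little, was higher (0.39, SE 0.11, adjusted p = 0.012). Its signal means were 45.4 in MHM + GF and 65.4 in rcCHIL3 at 3 days, and 98.5 and 94.6 at 7 days, so it rose over time in both media, by 0.86 in MHM + GF (adjusted p = 4.94e-05) and by 0.42 in rcCHIL3 (adjusted p = 0.0121), where Ezh2 fell. At 7 days Jarid2, a DNA-binding partner of PRC2, was higher (0.29, SE 0.08, adjusted p = 0.0125) and Rbbp4 lower (-0.20, SE 0.06, adjusted p = 0.0168). The list's median was 0.02 at 3 days and -0.16 at 7 days. At 3 days 2 of the 7 were lower (against 22.1% of all tested genes) and 1 higher (against 30.3%). At 7 days 1 was lower (against 22.6%) and 1 higher (against 21.8%), so these counts were near or under the shares of all genes.

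Polycomb repressive complex 1 (PRC1), forms of which bind the mark that PRC2 makes, had more genes lower at 7 days than at 3 days. Of its 14 tested genes, 4 were higher (against 30.3% of all tested genes) and 2 lower (against 22.1%) at 3 days, with a median of 0.10. At 7 days 7 were lower (against 22.6%), with a median of -0.20. In limma 0 were higher at 7 days (against 21.8%), or 1 at an unadjusted p under 0.05. At 3 days Pcgf6 (0.87, SE 0.09, adjusted p = 8.69e-06), Ring1 (0.44, SE 0.12) and Pcgf3 (0.36, SE 0.08) were the largest rises, while Kdm2b, which brings PRC1 to CpG islands, was lower (-0.29, SE 0.09), as was Bmi1 (-0.21, SE 0.07). At 7 days Kdm2b (-0.73, SE 0.09, adjusted p = 5.58e-05), Bmi1 (-0.60, SE 0.07, adjusted p = 5.2e-05), known for the self-renewal of neural stem cells, and Cbx7 (-0.52, SE 0.13) were the largest falls. Cbx7 passed the limit only through MHM + GF at 7 days (mean 59.3, against 21.6 to 35.5 elsewhere). The filter therefore favoured its lower call, which is among the 7. Of the demethylases that remove the PRC2 mark, Kdm6a was lower at 3 days (-0.33, SE 0.09, adjusted p = 0.0126), and Kdm6b (0.18 and 0.04) had no call at either day. The Hox genes, textbook targets of PRC2, had 33 genes on the array and none over the limit in any group (highest signal 31.0).

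Dnmt1, which maintains DNA methylation, was lower with rcCHIL3, more so at 3 days. At 1422946_a_at its signals were 304 and 296 in MHM + GF against 192 and 180 in rcCHIL3 at 3 days, and 212 and 234 against 192 and 175 at 7 days. The media did not overlap at either day, whereas the 3-day and 7-day arrays in rcCHIL3 did. The difference was -0.64 at 3 days (SE 0.08, adjusted p = 4.59e-05) and -0.26 at 7 days (SE 0.08, adjusted p = 0.0219). The other 2 probe sets gave -0.78 and -0.85 at 3 days and -0.42 at 7 days for each, all past the threshold. At the brightest probe set the 7-day call ended without MHM + GF array 2 (adjusted p = 0.136) or rcCHIL3 array 2 (0.144), on the deposited scale (0.396) and with the methods' t-test (unadjusted p = 0.0984). Over time Dnmt1 fell by 0.40 in MHM + GF (adjusted p = 0.00123), and in rcCHIL3 the change was -0.02 (SE 0.08, adjusted p = 0.873).

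Hells, the remodeler, had the largest fall of the tested members at 3 days. At 1417541_at its signals were 188 and 181 in MHM + GF against 48.3 and 48.6 in rcCHIL3 at 3 days, and 86.3 and 87.8 against 30.3 and 27.1 at 7 days. The arrays of a group differed little, no groups overlapped, and the order was the same as for Ezh2. Hells passed the limit only through the MHM + GF arrays, where it was higher, so a lower value in rcCHIL3 was favoured by the filter. The ratio of mean signals, MHM + GF over rcCHIL3, was 3.82 at 3 days and 3.03 at 7 days. On the log2 scale the difference was -1.58 (SE 0.09, adjusted p = 6.65e-08) and -1.14 (SE 0.09, adjusted p = 2.41e-06), and the falls over time were 0.94 in MHM + GF (adjusted p = 4.62e-06) and 0.49 in rcCHIL3 (adjusted p = 0.00132). Its 2 dim probe sets were lower at 3 days too (-0.42 and -0.83, adjusted p = 0.019 and 0.00434 over all probe sets), and at 7 days 1430139_at was lower (-0.79, adjusted p = 0.0011) and 1453361_at had no call (-0.27, adjusted p = 0.299).

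Dnmt3a, a de novo methyltransferase, went the other way at 3 days. At 1423063_at its signals were 303 and 299 in MHM + GF against 396 and 411 in rcCHIL3 at 3 days, and 420 and 378 against 365 and 315 at 7 days. MHM + GF at 3 days was the lowest group, and the other 3 lay closer together, with arrays of rcCHIL3 at 3 days within the range of MHM + GF at 7 days. The difference was 0.40 at 3 days (SE 0.08, adjusted p = 0.00172) and -0.22 at 7 days (SE 0.08, adjusted p = 0.0481). The value at 7 days, so near the threshold, lost its call under 12 of 20 alternatives, among them leaving out MHM + GF 7-day array 1 (-0.15, adjusted p = 0.242) or rcCHIL3 7-day array 2 (-0.12, adjusted p = 0.337). In MHM + GF it rose by 0.38 over time (adjusted p = 0.00205), and in rcCHIL3 the value was -0.24 (adjusted p = 0.0409; -0.14 and 0.295 without rcCHIL3 7-day array 2, and -0.21 and 0.184 without rcCHIL3 3-day array 2).

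The probe sets of Dnmt3a did not behave alike. At 3 days 1460324_at (0.64, adjusted p = 5.65e-05) and 1423065_at (0.39, adjusted p = 0.0109) were higher too, and 1423066_at gave 0.28 (adjusted p = 0.1). The dim 1423064_at, with mean signals of 18.5 in MHM + GF (SD 0.808) and 9.48 in rcCHIL3 (SD 0.14), was lower (-0.39, adjusted p = 0.038 over all probe sets). At 7 days the second brightest gave -0.20 (adjusted p = 0.066) and the others 0.06 to 0.27 without a call. Which transcripts each probe set detects was not analysed here.

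Dnmt3b, the other de novo enzyme, was dim and differed at 7 days. At 1449052_a_at its signals were 48.3 and 33.7 in MHM + GF against 43.6 and 47.7 in rcCHIL3 at 3 days, and 64.5 and 61.9 against 43.1 and 37.0 at 7 days. It passed the limit only through MHM + GF at 7 days, the group where it was highest, so a difference there was favoured by the filter. The difference was 0.12 at 3 days (SE 0.12, adjusted p = 0.455) and -0.47 at 7 days (SE 0.12, adjusted p = 0.00897, and 0.0673 without rcCHIL3 7-day array 2). It rose by 0.46 over time in MHM + GF (adjusted p = 0.00752), a value of 0.29 without MHM + GF 3-day array 2 (adjusted p = 0.0817). The other probe set, 1418351_a_at, had no call in any comparison.

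**Figure D3:**
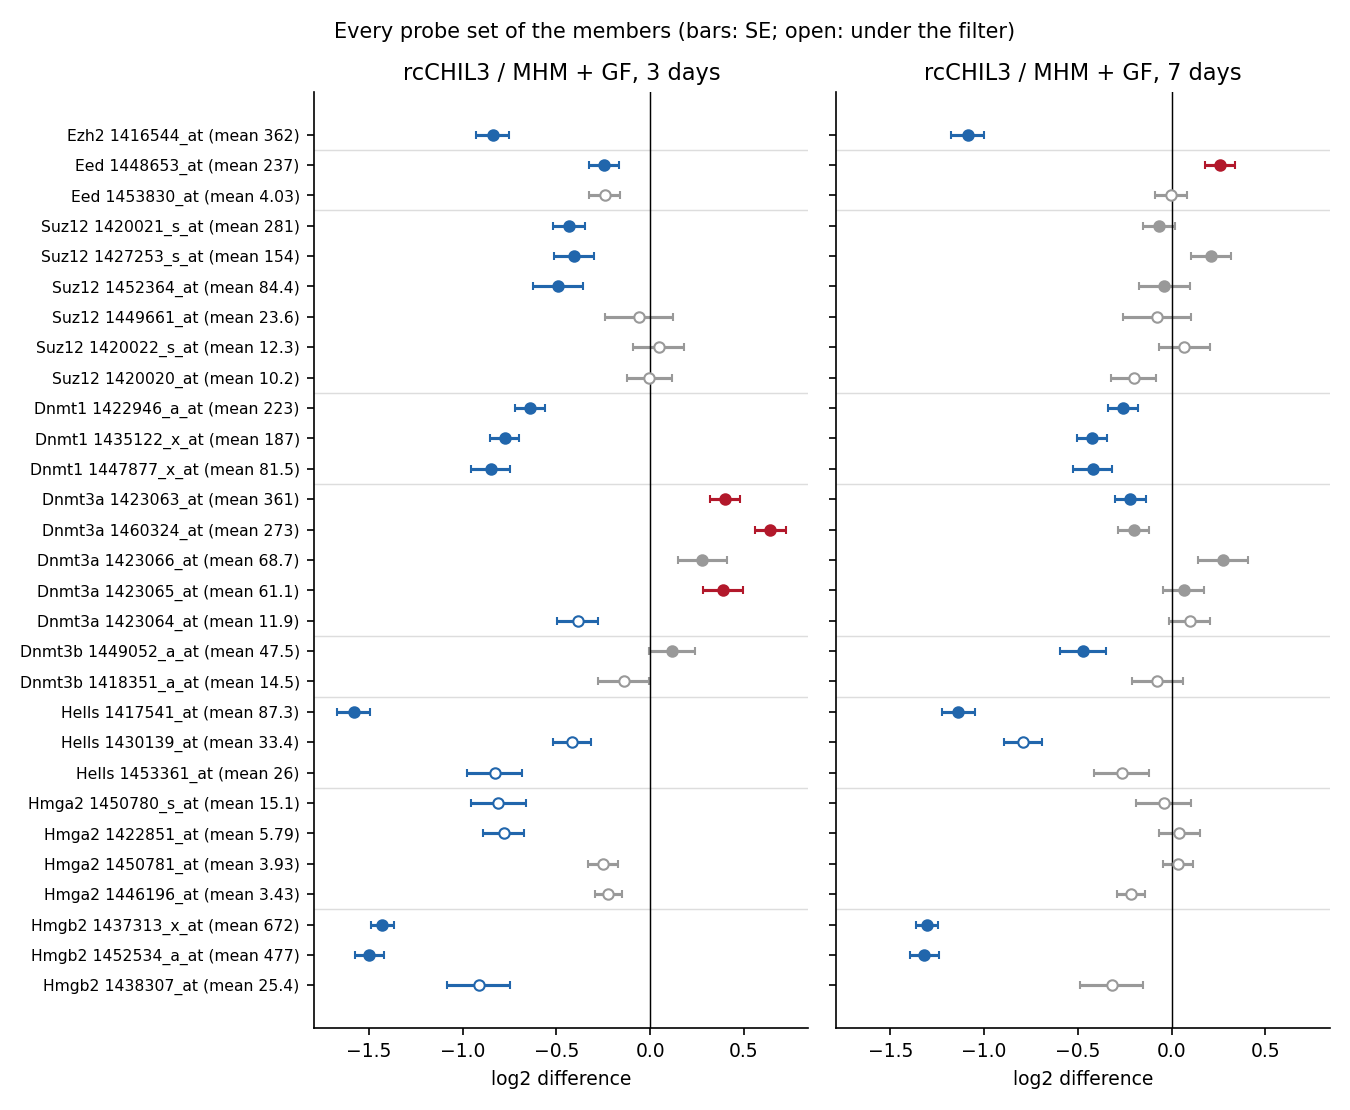
Log2 differences between rcCHIL3 and MHM + GF at 3 days (left) and 7 days (right) for all 29 probe sets, on the same x axis, with each gene's probe sets ordered by mean signal over the 8 arrays; bars are standard errors, blue and red mark calls, and open points are probe sets under the limit, adjusted over all probe sets. The 3 Dnmt1 probe sets lie on 1 side at both days, whereas the dim Dnmt3a probe set lies opposite to the other 4 at 3 days.

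Among the partners and readers of DNA methylation, Uhrf1, which brings DNMT1 to replicated DNA, had the largest difference at 3 days. Its signal means were 380 in MHM + GF and 54.2 in rcCHIL3 at 3 days, and 116 and 26.5 at 7 days, a difference of -2.43 (SE 0.09, adjusted p = 2.25e-09) and -1.55 (SE 0.09, adjusted p = 1.91e-07). Of the 12 tested genes of this list, 6 were lower (against 22.1% of all tested genes) and 2 higher (against 30.3%) at 3 days, with a median of -0.10. At 7 days 7 were lower (against 22.6%) and 2 higher (against 21.8%), with a median of -0.36. At 3 days Uhrf2, a relative of Uhrf1, was lower (-0.78, SE 0.13), and at 7 days so were Cdca7, a partner of HELLS (-1.74, SE 0.09), and the corepressor Trim28 (-0.49, SE 0.06). The methyl-CpG reader Mbd2 was higher at both days (0.52 and 0.30), Zbtb4 at 3 days (0.26) and Usp7 at 7 days (0.23).

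Of 6 tested genes of DNA demethylation, 3 were higher and 1 lower at each day, with medians of 0.33 and 0.26. Of all tested genes 30.3% were higher and 22.1% lower at 3 days, and 21.8% and 22.6% at 7 days. Gadd45a, a stress gene tied to DNA repair and demethylation, had signal means of 71.7 in MHM + GF and 282 in rcCHIL3 at 3 days (1.72, SE 0.08, adjusted p = 1.84e-08) and was higher at 7 days too (0.56, SE 0.08). Apobec1, a cytidine deaminase, was higher at both days (0.61 and 0.90), and Tet1, an enzyme that oxidises methylcytosine, at 7 days (0.54, SE 0.10). Tet2 was lower at 3 days (-0.32), and Gadd45g was higher at 3 days (0.74) and lower at 7 days (-0.32).

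Germline genes that DNA methylation is known to silence had 20 genes on the array and none over the limit in any group (highest signal 14.0). Of 13 tested imprinted genes, whose single active copy depends on inherited methylation, 7 were lower (against 22.1% of all tested genes) and 3 higher (against 30.3%) at 3 days. At 7 days 7 were lower (against 22.6%) and 1 higher (against 21.8%). The medians were -0.26 and -0.39. The largest at 3 days were Cdkn1c (-2.58, SE 0.10), Nnat (-2.40, SE 0.15) and, in the opposite direction, the noncoding RNA Meg3 (2.21, SE 0.13), with Impact (0.98) and Plagl1 (0.42) also higher. At 7 days Nnat (-1.68), Plagl1 (-1.13) and Mest (-0.95) were lower and Cdkn1c was higher (0.40). Methylation itself was not measured by these arrays.

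Hmgb2 was lower with rcCHIL3 at both days and fell over time in both media. At 1437313_x_at its signals were 1227 and 1247 in MHM + GF against 447 and 447 in rcCHIL3 at 3 days, and 743 and 701 against 282 and 279 at 7 days. No groups overlapped, and the order was that of Ezh2 and Hells. The difference was -1.43 at 3 days (SE 0.06, adjusted p = 6.94e-09) and -1.30 at 7 days (SE 0.06, adjusted p = 4.97e-08), and at 7 days 0.713% of all tested genes had a lower value. The second probe set, 1452534_a_at, gave -1.50 and -1.32, and the dim 1438307_at -0.91 (adjusted p = 0.00481 over all probe sets) and -0.32 (adjusted p = 0.267). Over time, at the brightest probe set, it fell by 0.76 in MHM + GF (adjusted p = 1.06e-06) and by 0.64 in rcCHIL3 (adjusted p = 1.31e-05). The suffix of the first probe set marks probes that can match other transcripts.

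Hmga2 was dim at every probe set and highest in MHM + GF at 3 days. At 1450780_s_at its signals were 26.3 and 34.9 in that group, 7.87 and 9.69 in rcCHIL3 at 3 days, 8.42 and 13.6 in MHM + GF at 7 days, and 13.2 and 7.16 in rcCHIL3 at 7 days. The first group lay above the other 6 arrays, which overlapped each other. Over all probe sets the difference was -0.81 at 3 days (SE 0.15, adjusted p = 0.00466) and -0.04 at 7 days (SE 0.15, adjusted p = 0.91), and it fell by 0.70 over time in MHM + GF (adjusted p = 0.00808; 0.0582 without MHM + GF 3-day array 2 and 0.0613 without MHM + GF 7-day array 1). The second probe set, 1422851_at, was lower as well (-0.78, adjusted p = 0.00112), with signals of 12.6 and 20.7 against 1.65 and 0.786, and the other 2 had no call. Signals this low may be near the background of the array, and detection calls were not used here.

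Related genes of these families gave a mixed picture. Of 9 tested genes of other HMG box and HMGN proteins, 3 were lower (against 22.1% of all tested genes) and 1 higher (against 30.3%) at 3 days. At 7 days 4 were lower (against 22.6%). The medians were -0.10 and -0.14. Hmgn5, a nucleosome-binding protein, was lower at 3 days (-1.35, SE 0.08, adjusted p = 1e-07) and had no call at 7 days (-0.14), and Hmgb3, the relative of Hmgb2, was lower at both (-0.84 and -0.54). Smarce1 (-0.66) and Pbrm1 (-0.32) were lower at 7 days, and Hmgxb3 was higher at 3 days (0.46). Of 16 remodeler ATPases, the class to which HELLS belongs, 5 were lower (against 22.1%) and 1 higher (against 30.3%) at 3 days. At 7 days 7 were lower (against 22.6%) and 1 higher (against 21.8%). The medians were -0.13 and -0.23. At 3 days Rad54l, a recombination factor, was lower (-0.98), as was Srcap (-0.48), and Chd3 was higher (1.68). Rad54l (mean 66.7) and Srcap (54.6) passed the limit only through MHM + GF at 3 days, so the filter favoured these lower calls. Chd3 reached the limit only in rcCHIL3 (means of 103 and 57.1, against 18.5 and 44.1 in MHM + GF), which favoured its higher call. At 7 days Chd7 (-0.94), Smarca1 (-0.92) and Rad54l (-0.73) were lower and Smarca5 higher (0.25). Of genes linked to let-7 and Hmga2, 3 were tested: Cdkn2c (-1.29), Igf2bp3 (-0.60) and Cdkn2b (-0.38) were lower at 3 days, and at 7 days Cdkn2c (-0.58) and Igf2bp3 (-0.26) were lower and Cdkn2b higher (0.28). Lin28a and Lin28b, which block let-7, were under the limit.

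**Figure D4:**
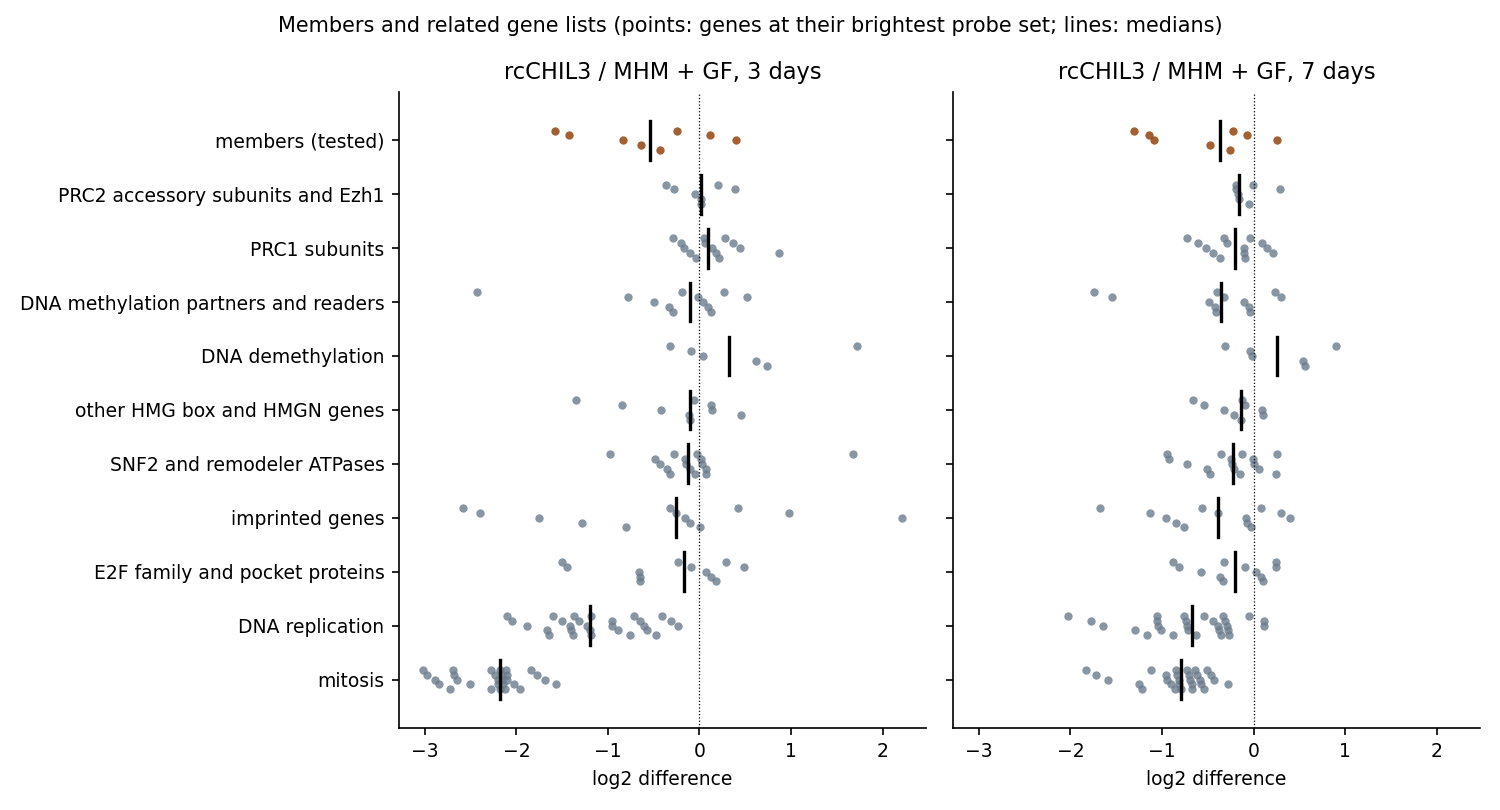
Log2 differences between rcCHIL3 and MHM + GF at 3 days (left) and 7 days (right), on the same x axis, of the 8 tested members and of 10 gene lists; each point is a gene at its brightest tested probe set and each line the median of the list. The median of the members was -0.54 and -0.36, that of DNA replication -1.19 and -0.68 and that of mitosis -2.18 and -0.79, while the Polycomb lists lie near 0 at 3 days. The filter favoured lower values of genes that reached the limit only in MHM + GF.

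Over the 8 arrays, the genes with the highest Pearson correlation to Hells were Uhrf1 (r = 0.997), Smc2 and Cks1b (0.996 each), to Hmgb2 Cenpk (0.996), Mcm5 (0.995) and Hells (0.993), and to Dnmt1 Tex10 (0.992), Rtel1 and Trip13 (0.991 each). To Ezh2 they were Elovl2 (0.993), Cggbp1 (0.99) and Alcam (0.989). For the others the best were Orc5 for Eed (0.984), 2310009B15Rik for Suz12 (0.983), Rfx4 for Dnmt3a (0.976) and Csnk1g3 for Dnmt3b (0.978). Among the members, r was 0.958 between Ezh2 and Hells, 0.977 between Ezh2 and Hmgb2 and 0.962 between Dnmt1 and Hells, whereas Ezh2 and Eed gave 0.088 and Dnmt3a and Eed -0.741. All arrays enter each value in 4 groups of 2, so these are descriptions with no test.

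Proliferation genes moved in the same comparisons. All 28 tested genes of DNA replication were lower with rcCHIL3 at 3 days and 24 at 7 days, and all 29 mitosis genes at 3 days and 28 at 7 days. Of all tested genes 22.1% were lower at 3 days and 22.6% at 7 days. Several of the replication and mitosis genes reached the limit only in MHM + GF, so the filter favoured their lower calls, as for Hells. Ccnb2 had means of 333 in MHM + GF and 24.9 in rcCHIL3 at 3 days, and 26.2 and 11.7 at 7 days. Those of Plk1 were 166 and 18.4, then 23.3 and 9.21. Others, such as Smc4 (684 and 217, then 251 and 177), were over the limit in every group. Mcm5, a subunit of the replicative helicase, gave -2.10 and -2.03, Rrm2, which makes deoxynucleotides, -2.04 and -1.65, Mcm3 -1.88 at 3 days and Mcm7 -1.78 at 7 days. Of the mitosis genes, Cdc20 (-3.02), Ccnb2 (-2.98) and Cenpa (-2.88) led at 3 days and Mki67 (-1.83), Top2a (-1.72) and Ccna2 (-1.59) at 7 days. The summed signal of the mitosis list was 10298 to 10479 in MHM + GF at 3 days, 1525 to 1636 in rcCHIL3 at 3 days, 2137 to 2170 in MHM + GF at 7 days and 905 to 937 in rcCHIL3 at 7 days. This is the group order of Ezh2, Hells and Hmgb2, and the filter favoured a high sum in MHM + GF in the same way. Of 12 tested genes of the E2F family and its pocket proteins, 6 were lower (against 22.1% of all tested genes) and 3 higher (against 30.3%) at 3 days. The lower ones were led by E2f8 (-1.50), Rbl1 (-1.45) and Tfdp2 (-0.66), and E2f3 (0.49), Lin54 (0.29) and Rb1 (0.18) were higher. At 7 days 6 were lower (against 22.6%) and 2 higher (against 21.8%), with E2f8 (-0.88), Rbl1 (-0.81) and Tfdp1 (-0.57) lower and Rb1 (0.25) and E2f5 (0.24) higher. E2f8 (mean 83.0, against 1.66 to 19.8 elsewhere) and Lin9 (67.7, against 30.1 to 43.2) passed the limit only through MHM + GF at 3 days. Rbl1 passed it only through MHM + GF (147 and 76.1, against 41.2 and 34.9 in rcCHIL3). The filter favoured the lower calls of these genes at 3 days and that of Rbl1 at 7 days. The part of proliferation in the members' differences was not tested.

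Markers of other cell types moved with the groups as well. The summed signal of 8 astrocyte markers was 5141 to 5220 in MHM + GF at 3 days and 7469 to 9112 in the other groups, and Gfap, an astrocyte filament, had means of 52.0, 910, 1145 and 1546 (MHM + GF and rcCHIL3 at 3 days, then at 7 days). Of the 8, 5 were higher (against 30.3% of all tested genes) and 2 lower (against 22.1%) with rcCHIL3 at 3 days. At 7 days 4 were higher (against 21.8%) and 2 lower (against 22.6%). The 2 lower ones were Aldh1l1 (-1.24 and -0.54) and Slc1a3 (-0.38 and -0.34) at both days. The summed signal of the 7 tested of 8 neuroblast and neuron markers (all but Rbfox3) was highest in MHM + GF at 7 days (2766 to 2774, against 1372 to 2000 elsewhere). Map2 alone had a mean of 1348 in that group. Snap25 was instead highest in MHM + GF at 3 days (53.9, against 22.2 to 30.5 elsewhere). With rcCHIL3 at 3 days 5 of the 7 were higher (against 30.3% of all tested genes). At that day 2 were lower (against 22.1%), Snap25 (-0.55) and Map2 (-0.23). At 7 days 5 were lower (against 22.6%) and in limma 0 higher (against 21.8%). The summed signal of the 2 tested of 6 mural and fibroblast markers, Pdgfrb and Rgs5, was 414 to 448 in MHM + GF at 7 days and 22.6 to 67.5 elsewhere. The other 4 (Col1a1, Col1a2, Col3a1 and Lum) were under the limit and are not in the sum. Pdgfrb and Rgs5 passed the limit only through MHM + GF at 7 days, so the filter favoured a high sum in that group. The summed signal of the 2 tested of 5 ependymal markers, Foxj1 and Rsph1, was highest in rcCHIL3 at 7 days (397 to 410, against 74.4 to 202). Tekt1, Tmem212 and Ccdc153 were under the limit and are not in the sum. Rsph1 reached the limit on both arrays only in rcCHIL3 at 7 days (mean 129), so the filter favoured a high sum there. With rcCHIL3 at 3 days Foxj1 was higher (1.11) and Rsph1 lower (-0.43), and at 7 days both were higher (0.89 and 1.17). For 6 tested oligodendrocyte lineage markers (Mog was under the limit) the summed signal was 4789 to 4881 in rcCHIL3 at 3 days and 3691 to 4298 elsewhere. These 6 did not move together: at 3 days Cspg4 (-0.83), Olig1 (-0.61) and Pdgfra (-0.27) were lower with rcCHIL3. Mbp (0.83, means of 1476 in MHM + GF and 2645 in rcCHIL3) and Sox10 (0.61) were higher, and the median was -0.22. The part of these cell type markers in the members' differences was not tested.

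The effect of rcCHIL3 differed between the days for 6 of the 8 tested members, 4 upwards (against 19.2% of 8975 tested genes) and 2 downwards (against 24.1%). It was shifted upwards at 7 days, relative to 3 days, for Eed (0.50, SE 0.11, adjusted p = 0.00401), Hells (0.44, SE 0.13, adjusted p = 0.0151), Dnmt1 (0.38, SE 0.11, adjusted p = 0.0185) and Suz12 (0.37, SE 0.12, adjusted p = 0.0275), and downwards for Dnmt3a (-0.62, SE 0.12, adjusted p = 0.00138) and Dnmt3b (-0.59, SE 0.17, adjusted p = 0.018). Ezh2 (-0.25, SE 0.12, adjusted p = 0.136) and Hmgb2 (0.12, SE 0.09, adjusted p = 0.267) had no call, and Hmga2 gave 0.77 (SE 0.21, adjusted p = 0.041 over all probe sets). Eed kept its call under all 18 alternatives. Suz12 lost it without MHM + GF 3-day array 2 (0.0992), MHM + GF 7-day array 2 (0.0891), rcCHIL3 3-day array 1 (0.101) or rcCHIL3 7-day array 1 (0.0908). Dnmt1 lost it without MHM + GF 3-day array 1 (0.0522), MHM + GF 7-day array 1 (0.0576), rcCHIL3 3-day array 2 (0.0717) or rcCHIL3 7-day array 1 (0.0684). Dnmt3b lost it without MHM + GF 3-day array 2 (0.0667), rcCHIL3 3-day array 2 (0.0652) or rcCHIL3 7-day array 2 (0.0644), while Hells and Dnmt3a kept it whichever array was left out. On the deposited scale it was lost for Hells (0.0925), Dnmt3a (0.0542) and Dnmt3b (0.0976), with an offset of 1 for Hells (0.121), and with no filter for Suz12 (0.0691) and Dnmt3b (0.0617). Hmga2 lost it under 9 of 14 alternatives (adjusted p up to 0.134). Ezh2 gained a call without MHM + GF 3-day array 1 (-0.36, adjusted p = 0.0407).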

How the data were processed

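The authors hybridised labelled RNA to 8 Affymetrix mouse genome arrays and made signal intensities with the MAS5 algorithm (Affymetrix Expression Console 1.1 per the labels). The deposited intensity values are linear and were not used as such: the mean of an array without its lowest and highest 2% differed between arrays by up to 1.19 times, so each array was divided by its average and multiplied by 100. The deposited table holds no replicate means and no comparisons.

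Values were taken as log2(signal + 20). Probe sets with a signal of at least 50 on at least 2 arrays were tested (15679), leaving out 64 control probe sets. Of the 45101 probe sets, 34958 carry 1 symbol, 932 several and 9211 none, and only the first were named. In R 4.3.3, limma 3.58.1 estimated the mean of each of the 4 groups. Its eBayes step used a trend, and the fit had 4 residual degrees of freedom. Two-sided p-values were adjusted by Benjamini-Hochberg and called at 0.05. Probe sets under the limit were fitted together with all others. Promoters came from the RefSeq table for GRCm38.p6, with 15 windows for the 10 genes. Python 3.11.15 (numpy 2.4.6, pandas 2.3.3, matplotlib 3.10.9) served for summaries and plots, and the fit was tested on simulated data.

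All members are named at every probe set. From each gene list other than the cell type markers, the 3 largest changes past the threshold at each day and those of the opposite direction are named. The genes most alike over the 8 arrays are given for the tested members, 3 each for Hells, Hmgb2, Dnmt1 and Ezh2 and 1 each for the others. The members and lists were chosen with earlier results of these data known. The labels number the arrays of a group, but deviations of equally numbered arrays had r between -0.011 and 0.102, which does not pair them, and the fit has no block. The alternatives were the deposited scale, quantile normalization, centring on the median, offsets of 1 and 50, no filter or one of 100, eBayes without a trend or robust, a replicate block, the second brightest probe set, the methods' t-test and leaving out each array. The number of arrays limits the precision.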

Additional observations from a re-analysis of the deposited data

Results flagged for a closer look

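By limma's test, the effect of rcCHIL3 against MHM + GF differed between 7 and 3 days upwards for 19.2% of 8975 tested genes and downwards for 24.1%. Among the members 7 passed, 6 of the 8 tested and Hmga2 in the fit over all probe sets. The largest in the upward direction was Hmga2 at 1450780_s_at (log2 difference 0.77, adjusted p = 0.041 over all probe sets, 0.0262 to 0.134 over 14 alternatives), a dim gene whose signal was high in MHM + GF at 3 days. Eed at 1448653_at followed (0.50, adjusted p = 0.00401, 0.00186 to 0.022 over 18 alternatives), lower with rcCHIL3 at 3 days and higher at 7 days. Hells at 1417541_at (0.44, adjusted p = 0.0151, 0.00253 to 0.121), Dnmt1 at 1422946_a_at (0.38, adjusted p = 0.0185, 0.0121 to 0.0717) and Suz12 at 1420021_s_at (0.37, adjusted p = 0.0275, 0.00713 to 0.101) had smaller differences from the control at 7 days than at 3 days. In the downward direction Dnmt3a at 1423063_at gave -0.62 (adjusted p = 0.00138, 0.000172 to 0.0542 over 19 alternatives), higher with rcCHIL3 at 3 days and lower at 7 days, and Dnmt3b at 1449052_a_at gave -0.59 (adjusted p = 0.018, 0.00455 to 0.0976 over 17 alternatives). Dnmt3b passed the signal filter only through MHM + GF at 7 days, the group where it was highest and which enters this difference, so the filter favoured it. In the same comparison the 29 mitosis genes all had upward values past the threshold (0.56 to 2.44). This is the direction of the first 5 genes and opposite to that of Dnmt3a and Dnmt3b. Several mitosis genes, such as Ccnb2 and Plk1, passed the filter only through MHM + GF at 3 days. That group enters this difference, so the filter favoured their upward values. The part of the mitosis genes in the members' values was not tested.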

How the results depend on the processing

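With 2 arrays in a group, small differences were near the threshold. Of 8 tested genes, the number called was 7 at 3 days, 7 at 7 days, 8 over time in MHM + GF, 5 over time in rcCHIL3 and 6 for the difference between the days. Of all tested genes 22.1% were called lower and 30.3% higher at 3 days, and 22.6% and 21.8% at 7 days. Over time these shares were 24.2% and 34.0% in MHM + GF and 18.1% and 20.4% in rcCHIL3. For the difference between the days they were 24.1% and 19.2%. On the deposited scale the count over time in rcCHIL3 was 3, and with the methods' t-test (at an unadjusted p under 0.05) the count at 7 days was 4. Leaving out Dnmt3b, added after seeing the data, gave 7, 6, 7, 5 and 5 of 7. Over all probe sets that t-test called 6518 at 3 days, 5144 at 7 days, 6583 over time in MHM + GF and 4857 over time in rcCHIL3, and after Benjamini-Hochberg adjustment 2434, 37, 2376 and 0. Leaving out each array in turn gave 6 to 7 at 3 days, 4 to 6 at 7 days, 7 to 8 and 3 to 5 over time in MHM + GF and rcCHIL3, and 4 to 6 for the difference. The counts of 4 at 7 days and of 3 over time in rcCHIL3 came without rcCHIL3 7-day array 2, and the latter also without rcCHIL3 3-day array 2. Ezh2, Hells and Hmgb2 at both days and Dnmt1, Suz12 and Dnmt3a at 3 days kept their calls under all alternatives run.

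The direction turned for values that had no call. On the deposited scale Suz12 at 7 days was 0.024 and Dnmt1 over time in rcCHIL3 0.079, and at the second brightest probe set Suz12 at 7 days was 0.21. Leaving out each array in turn gave Suz12 at 7 days -0.14 to 0.0046 (above 0 without MHM + GF 7-day array 1), Dnmt1 over time in rcCHIL3 -0.079 to 0.0403 (above 0 without rcCHIL3 3-day array 1 or 7-day array 2), Dnmt3b at 3 days -0.057 (without MHM + GF 3-day array 2) to 0.29, Hmga2 at 7 days -0.19 to 0.10 (above 0 without MHM + GF or rcCHIL3 7-day array 2) and Hmga2 over time in rcCHIL3 -0.083 (without rcCHIL3 7-day array 1) to 0.21. The deposited scale moves the median of all probe sets to 0.101 over time in rcCHIL3 and 0.115 for the difference between the days, from -0.001 and -0.038, and the cause of the other turns was not tested. With the replicate block the counts were 7, 7, 8, 5 and 6, and among single values it ended the call of Hmga2 for the difference between the days (adjusted p = 0.0518).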
